A study of Mus musculus with 2 samples.

Results

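The 17-beta hydroxysteroid dehydrogenases examined here are 7 genes, Hsd17b2, Hsd17b4, Hsd17b6, Hsd17b10, Hsd17b11, Hsd17b12 and Hsd17b13. They are 7 of the 19073 features in both count matrices. The genes were picked by name with earlier results on these libraries known, among them a lower level of Hsd17b6 in the Tom+ library. Their levels are therefore given as a description. All 7 reached at least 10 CPM (UMIs of a gene scaled to the total of the summed cells) in at least 1 library, so none was lost to a filter on low values. The files also hold Hsd17b1, Hsd17b3, Hsd17b7 and Hsd17b14, which are given near the end.

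The family was named for enzymes that convert the hydroxyl and keto forms of sex steroids into each other at carbon 17, which switches estrogens and androgens between a more and a less active form. Several members act mainly on other substrates, such as fatty acids, bile acid precursors, retinoids and products of isoleucine. In the liver lobule, blood runs from the portal vein to the central vein, and hepatocytes along this path express different metabolic genes, a pattern called zonation.

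The livers came from male p16-Tom mice on a C57BL/6 background, whose age is not given in the sources used here. These mice were heterozygous for p16-CreERT2, a tamoxifen-dependent recombinase under control of the p16 gene, and for R26-CAG-LSL-tdTomato-WPRE, a red reporter that recombination switches on for good. Both groups had received the hepatotoxin CCl4 for 4 weeks, and tamoxifen, so no untreated liver is in the comparison. Fixed tissue was dissociated, and stained cells (DNA and mitochondria) were divided by flow sorting into Tom- (p16low) and Tom+ (p16high) hepatocytes. Each group is 1 library, and how many mice stand behind it is not stated. Every difference below is one between these 2 libraries, with no replicate check and no test. CreERT2 follows p16 transcription at the time of tamoxifen, so the fractions show labelling and not the p16 level at collection. In a separate experiment the paper found more p16 mRNA by qPCR in Tom+ than in Tom- hepatocytes, collected days after the last CCl4 dose.

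After filters on genes and UMIs and the removal of clusters with few genes or with immune, stromal or endothelial markers, 10987 Tom- and 10509 Tom+ hepatocytes remained, with medians of 32547 and 35520 UMIs. The libraries held 681279005 (Tom-) and 715333889 (Tom+) UMIs in all. Hepatocytes were 54.5% of the filtered Tom- cells and 78.6% of the filtered Tom+ cells. The libraries shared 503 barcodes. Of the 8 hepatocyte markers listed, 7 were in the files, and their summed level lay between 119617 and 164573 CPM in every layer of both libraries. The cells had been kept by leaving out clusters with other markers. Clusters left out held hepatocyte RNA too, with Alb at 107899 CPM in Tom- cells of the most immune-rich one. The marker level therefore cannot by itself tell hepatocytes from other barcodes. Macrophage markers summed to 124.2 to 212.7 CPM over the layers of the Tom- library and to 90.1 to 179.7 CPM in the Tom+ library, with a median of 4 and 3 UMIs per cell. Endothelial markers summed to 52.5 to 64.8 CPM and 39.4 to 63.5 CPM, stellate and fibroblast markers to 31.7 to 68.2 CPM and 28.6 to 75.8 CPM, and other leukocyte markers to at most 4.51 and 3.03 CPM. All 8 macrophage, all 8 endothelial and all 8 stellate markers had counts in every layer. The part of these cells in the results was not tested.

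Lobule position was scored in each cell from 20 genes of the central end, such as Glul and Cyp2e1, and 20 genes of the portal end, such as Sds and Cyp2f2, none of them a family member. The pooled cells were then cut into 8 layers of equal size, from layer 1 (most portal) to layer 8 (most central). A layer is a range of a score and not a cell type, and 1509 of the 21496 cells (7.02%) lay within 0.02 of a limit between layers. The libraries filled the layers unequally. Layer 1 held 17.8% of Tom- and 6.97% of Tom+ hepatocytes, and layer 8 held 5.53% and 19.8%. A gradient below is the log2 ratio of layer 8 over layer 1 within a library, and the matched ratio is the log2 ratio of Tom+ over Tom- after each layer was given the same weight in both. Brackets give 95% intervals, which cover counting error only and not the spread between mice. The assay reads RNA through pairs of short probes, so levels were compared between libraries and layers and not between genes.

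Promoter sequence was found for 5 of the 7 genes in the RefSeq table used. The 250 bases before the start are shown for Hsd17b6 and Hsd17b13, the members with the steep portal gradients below. The RefSeq start of Hsd17b13 lies inside the gene as GENCODE gives it, so the last 22 bases shown are within the coordinates printed for that gene below, while none are for Hsd17b6. Capitals mark matches to 4 short motifs searched on both strands. These were the CCAAT box, the TATA box in the form TATAAA, the core TCAAAG bound by TCF/LEF factors, and the core CAAAGTC found in HNF4 sites, whose first letters overlap the end of the TCF/LEF core.
Hsd17b6 (GRCm38.p6 chr10:128007612-128007861, minus strand): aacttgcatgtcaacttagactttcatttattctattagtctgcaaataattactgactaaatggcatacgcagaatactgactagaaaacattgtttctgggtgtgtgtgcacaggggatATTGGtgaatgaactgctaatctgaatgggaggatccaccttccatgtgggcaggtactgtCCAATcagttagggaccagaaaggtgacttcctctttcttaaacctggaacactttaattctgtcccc
Hsd17b13 (GRCm38.p6 chr5:103977389-103977638, minus strand): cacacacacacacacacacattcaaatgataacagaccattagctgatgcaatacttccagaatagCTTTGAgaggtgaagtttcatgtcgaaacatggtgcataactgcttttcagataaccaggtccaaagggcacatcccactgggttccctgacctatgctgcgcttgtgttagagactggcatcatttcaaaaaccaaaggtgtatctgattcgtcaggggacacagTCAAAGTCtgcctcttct

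Hsd17b13 held TCAAAG on the promoter strand from 18 to 13 bases before its RefSeq start, joined there to CAAAGTC from 17 to 11 bases before, and CTTTGA, its reverse complement, from 184 to 179 bases before. Hsd17b6 held CCAAT from 68 to 64 bases before its start and its reverse complement ATTGG from 129 to 125 bases before. Among 32851 promoters of the same length, 33.8% held CCAAT, 12.4% TATAAA, 13.8% TCAAAG and 3.84% CAAAGTC on either strand. CG pairs numbered 1 in Hsd17b6 and 3 in Hsd17b13, against a median of 6 over all promoters. A match describes letters and not a bound site.

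The 7 genes lie on 6 chromosomes (mm10). Hsd17b2 is on chromosome 8 (117701904 to 117759027), Hsd17b4 on chromosome 18 (50128201 to 50196269), Hsd17b10 on the X chromosome (152001845 to 152004442), all on the plus strand. Hsd17b6 is on chromosome 10 (127990936 to 128007611) and Hsd17b12 on chromosome 2 (94032689 to 94157964), both on the minus strand. Hsd17b13 (103955440 to 103977410) and Hsd17b11 (103989762 to 104021919) are neighbours on the minus strand of chromosome 5, with 12351 bases between them, and both encode proteins of the lipid droplet surface.

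The members split by the direction of their gradient in the same way in both libraries. Hsd17b6, Hsd17b13, Hsd17b2 and Hsd17b10 fell from the portal to the central end, and Hsd17b4, Hsd17b11 and Hsd17b12 rose. For all 7 the counting interval of the gradient left out 0 in both libraries. The share of all genes that did so was not counted, so nothing particular to the family is read from it. Only Hsd17b6 and Hsd17b13 passed 2-fold in both, toward the portal end, which 2.26% of 7780 genes did (176 genes). No member passed 2-fold toward the central end, which 3.48% of those genes did (271 genes). By the mean of both gradients, Hsd17b6 was the 6th and Hsd17b13 the 19th most portal of the 7780, places that rest on layer 8 levels whose background is not known. The median gene had a gradient of 0.17 in the Tom- and 0.22 in the Tom+ library, against which the smaller gradients are to be read. Scaling by the median of ratios in place of total UMIs moved these medians to -0.02 and -0.01, and the counts to 234 portal and 193 central genes. The 7 members kept the direction of their gradients under it, with the exception of Hsd17b12 in the Tom+ library.

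**Figure D1:**
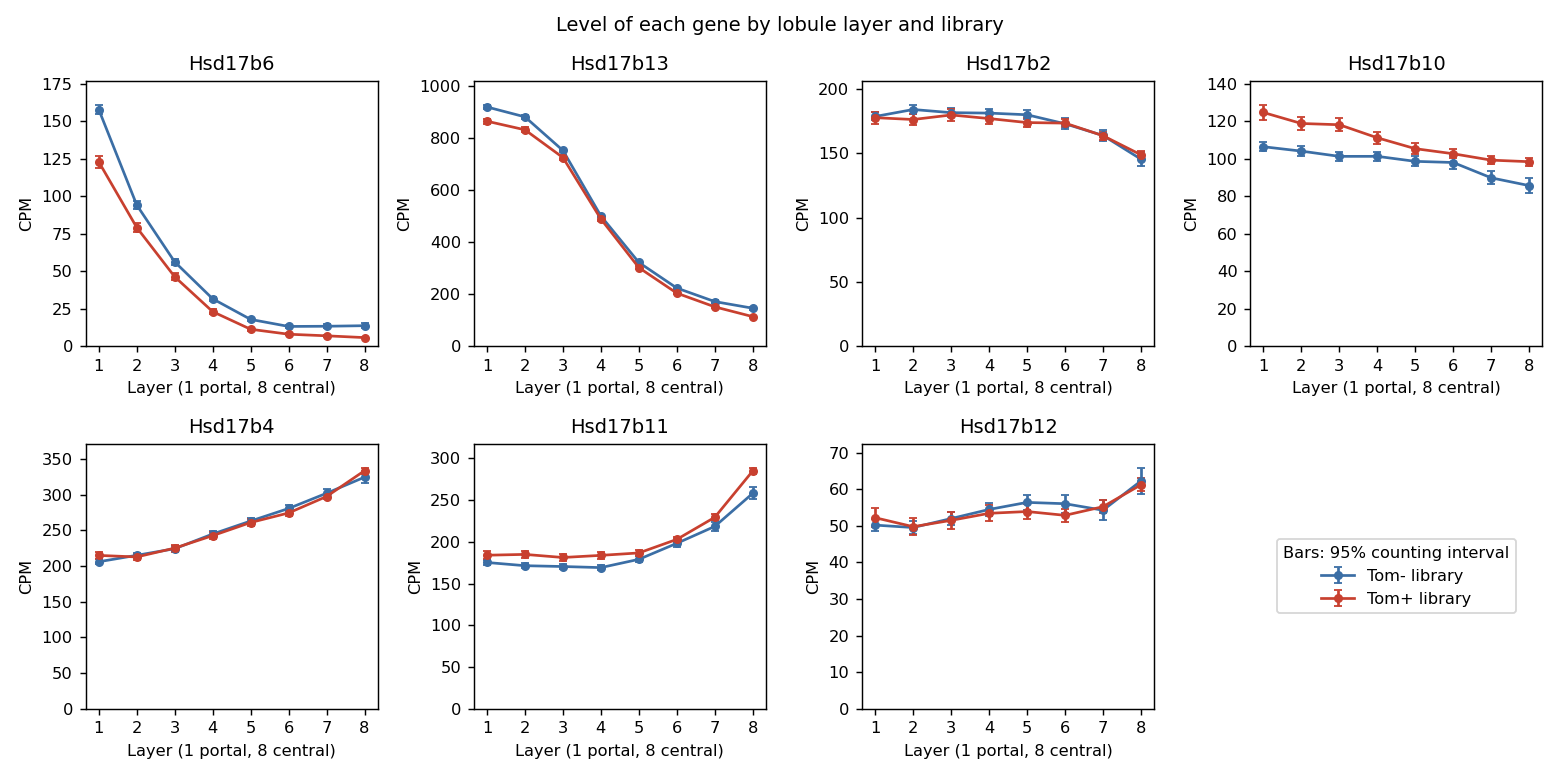
Level of each member in CPM (vertical axis, from 0) by lobule layer (1 portal to 8 central) in the Tom- and Tom+ libraries, with 95% counting intervals. Hsd17b6 fell from 157.8 to 13.6 CPM and Hsd17b13 from 920.1 to 145.7 CPM in the Tom- library, while Hsd17b4 rose from 206.0 to 324.5 CPM.

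Hsd17b6, an oxidative enzyme close to the retinol dehydrogenases that acts on 3-alpha hydroxysteroids, had the steepest gradient of the family. In the Tom- library it was at 157.8, 94.1, 56.2, 31.5, 17.8, 13.1, 13.2 and 13.6 CPM in layers 1 to 8. In the Tom+ library it was at 122.9, 79.1, 46.2, 23.0, 11.2, 7.92, 6.86 and 5.67 CPM. Each step from layer 1 to layer 5 was larger than the counting intervals in both libraries. From layer 4 (Tom-) and layer 5 (Tom+) on, the levels did not exceed the immune-rich cluster of the next paragraph. Where along the lobule the fall ends is therefore not read. Layers 6, 7 and 8 of the Tom- library could not be told apart, since their intervals all overlapped. The gradient came to -3.54 (-3.71 to -3.36) in Tom- and -4.44 (-4.58 to -4.30) in Tom+ cells, but it ends in a layer whose level is not read, so its size is uncertain beyond counting error. The fall within layers 1 to 3 does not depend on that layer.

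The lowest levels of Hsd17b6 in hepatocytes were under those in barcodes rich in immune markers. The most immune-rich cluster left out (873 Tom- and 320 Tom+ cells, Ptprc at 139.8 and 124.1 CPM) held Hsd17b6 at 29.9 CPM (26.6 to 33.6) and 15.3 CPM (11.8 to 19.5), with Alb at 107899 and 111161 CPM. Alb was at 79680 to 131193 CPM over the hepatocyte layers of the Tom- library and at 80794 to 134104 CPM over those of the Tom+ library, so the cluster carried hepatocyte RNA in full, and whether as free RNA or as joined cells was not settled. It is therefore no clean measure of background. The cluster also held the portal gene Sds, at 548.0 and 443.0 CPM. A portal gene can thus lie over the cluster in portal layers and under it in central ones at any background. The cluster is used here as a cautious limit for reading, and a level on either side of it does not settle the background. Hepatocytes exceeded its Hsd17b6 level beyond the counting intervals in layers 1 to 3 of the Tom- library and in layers 1 to 4 of the Tom+ library, and not in the layers after. With every cell thinned to 5000 UMIs (33 Tom- and 42 Tom+ shallower hepatocytes left out), a Hsd17b6 UMI was seen in 42.1% of Tom- cells (39.9 to 44.3, exact binomial interval) and 35.98% of Tom+ cells (32.5 to 39.6) of layer 1. In layer 8 the shares were 6.26% (4.47 to 8.49) and 3.13% (2.42 to 3.97), beside 13.1% (10.6 to 16.1) of 616 and 7% (3.88 to 11.5) of 200 cells of the immune-rich cluster. Among the cells deep enough to be thinned, the median depths before thinning were 32613 and 35622 UMIs in hepatocytes and 11797 and 13561 UMIs in that cluster. Over all 873 and 320 cells of the cluster the medians were 8190 and 7067.5 UMIs. Without thinning, 52.6% of Tom- and 30.9% of Tom+ hepatocytes had a Hsd17b6 UMI. None of the clusters described here was free of hepatocyte RNA, so how much of the low central counts is background is not known, and neither expression nor a difference is read from the layers that did not exceed the cluster. Over all hepatocytes Hsd17b6 had 61.7 CPM (Tom-) and 28.0 CPM (Tom+), and layer 8 stood at 22.0% and 20.3% of these means.

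Hsd17b13, a protein of the lipid droplet surface that is abundant in hepatocytes, fell toward the central vein as well. Its Tom- levels in layers 1 to 8 were 920.1, 882.0, 752.7, 500.7, 321.9, 223.4, 171.3 and 145.7 CPM. Its Tom+ levels were 865.3, 832.3, 725.5, 489.0, 301.9, 203.7, 151.0 and 113.3 CPM. Every one of the 7 steps went down in both libraries and exceeded the counting intervals. Unlike Hsd17b6, it lost little between layers 1 and 2 and dropped most in CPM between layers 3 and 4. The gradients were -2.66 (-2.71 to -2.60) and -2.93 (-2.97 to -2.90). The immune-rich cluster held Hsd17b13 at 319.8 and 265.3 CPM, and hepatocytes exceeded it in layers 1 to 4 of the Tom- and 1 to 5 of the Tom+ library. At 5000 UMIs per cell a Hsd17b13 UMI was seen in 98.4% and 98.2% of layer 1 cells and in 53.2% and 43.5% of layer 8 cells, against 73.9% and 65.0% in that cluster. The central layers lay under the cluster, which carried hepatocyte RNA, and how much background they hold is not known.

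The neighbour Hsd17b11, also a lipid droplet protein and a short-chain dehydrogenase, rose toward the central vein. In the Tom- library it was at 175.3, 171.5, 170.5, 169.2, 179.1, 198.3, 218.6 and 258.2 CPM. In the Tom+ library it was at 184.1, 185.0, 181.3, 183.9, 186.8, 203.0, 229.5 and 285.1 CPM. The level was flat over layers 1 to 4, where most neighbouring intervals overlapped, and rose over layers 5 to 8. The gradients were 0.56 (0.51 to 0.61) and 0.63 (0.59 to 0.67). Over the 16 points of 8 layers in 2 libraries the log2 levels of Hsd17b11 and Hsd17b13 had a Pearson correlation of -0.85, a description over points that share their position scores and library totals.

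Hsd17b4, the peroxisomal D-bifunctional protein that carries out the middle steps of beta-oxidation of branched and very long chain fatty acids and of bile acid precursors, rose toward the central vein. It went from 206.0 to 324.5 CPM in the Tom- library, up at each of the 7 steps, and from 214.9 to 333.5 CPM in the Tom+ library, up at 6 of 7. The gradients were 0.66 (0.61 to 0.70) and 0.63 (0.60 to 0.67). Hsd17b4 and Hsd17b13 ran in opposite directions over the 16 points, with a Pearson correlation of -0.99. This value does not compare sizes, and the Hsd17b13 gradients were larger, at -2.66 and -2.93. Its points include central layers whose background is not known.

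Hsd17b12, the ketoacyl-CoA reductase of fatty acid elongation in the endoplasmic reticulum, rose the least. Its levels ran from 49.6 to 62.3 CPM in the Tom- and from 49.8 to 61.2 CPM in the Tom+ library, lowest in layer 2 and highest in layer 8 of both. The gradients of 0.31 (0.22 to 0.40) and 0.23 (0.15 to 0.31) were near those of the median gene, and median-of-ratios scaling turned them to 0.12 and to 0.00 (slightly below 0). A rise of Hsd17b12 relative to other genes was therefore not shown in the Tom+ library.

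Hsd17b2, which oxidises estradiol and testosterone to their weaker keto forms, was nearly level over most of the lobule. It stayed between 173.0 and 184.1 CPM in layers 1 to 6 of the Tom- library and between 173.5 and 179.9 CPM in those of the Tom+ library. Only layers 7 and 8 stood lower, at 163.9 and 145.5 CPM in Tom- and at 163.7 and 148.9 CPM in Tom+ cells. The gradients were -0.30 (-0.36 to -0.24) and -0.26 (-0.30 to -0.21), and -0.49 in each library by median of ratios. All 8 layers of both libraries exceeded the immune-rich cluster, which was at 106.7 and 95.4 CPM.

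Hsd17b10, a mitochondrial enzyme of isoleucine breakdown and a subunit of mitochondrial RNase P, fell slightly and steadily. Tom- cells were at 106.3, 104.0, 101.2, 101.2, 98.5, 97.9, 89.7 and 85.6 CPM. Tom+ cells were at 124.6, 118.7, 118.0, 111.1, 105.3, 102.6, 99.1 and 98.3 CPM. The gradients were -0.31 (-0.39 to -0.24) and -0.34 (-0.40 to -0.29), and median-of-ratios scaling took them to -0.50 and -0.57, while thinning to 5000 UMIs took the Tom- gradient to -0.12. The gene is used by most cells, and the immune-rich cluster was at 96.2 and 97.1 CPM, near the lower hepatocyte levels. That cluster held Hsd17b4 at 209.9 and 243.0 CPM, Hsd17b11 at 182.7 and 196.9 CPM and Hsd17b12 at 43.9 and 47.6 CPM. Many cell types use these 4 genes.

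Between the libraries, the plain levels of the portal members differed widely, and most of this difference went with the layers. Without matching, the log2 ratio of Hsd17b6 was -1.14 from the plain levels above, and that of Hsd17b13 was -0.65 from 583.5 and 372.9 CPM. At matched position the ratios were -0.39 (-0.42 to -0.36) and -0.09 (-0.10 to -0.08). Hsd17b4 went from 0.15 to 0.00 (-0.01 to 0.01) and Hsd17b11 from 0.23 to 0.09 (0.07 to 0.10). Hsd17b10 went from 0.09 to 0.16 (0.14 to 0.18). Hsd17b2 and Hsd17b12 were at -0.02 (-0.034 to -0.0018) and -0.02 (-0.05 to 0.01) at matched position. Without the clusters of at least 90% Tom+ cells the Hsd17b2 ratio was -0.05, and with cells thinned to 5000 UMIs the Hsd17b12 ratio was -0.09. No member passed 1.5-fold in either direction. Among 7819 genes, 0.243% were higher (19 genes) and 0.0128% lower (1 gene, Fos, named here after its value was seen) by that measure. The median gene stood at -0.01, and 5% of genes were under -0.17.

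**Figure D2:**
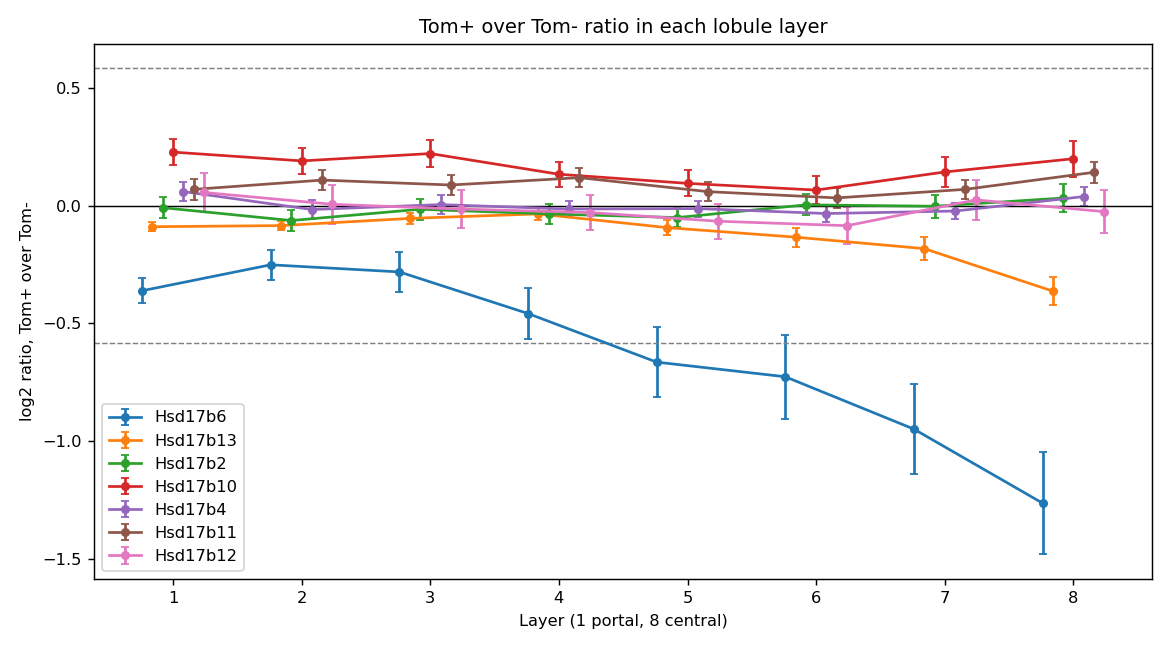
log2 ratio of Tom+ over Tom- CPM in each lobule layer for the 7 members, with 95% counting intervals and dashed lines at 1.5-fold. Hsd17b6 lay between -0.25 and -0.36 in layers 1 to 3, and its values in layers 4 to 8 are not read, while Hsd17b10 lay over 0 in all 8. Hsd17b10 levels lay over the interval of the immune-rich cluster in 2 Tom- and 4 Tom+ layers only.

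Hsd17b6 had the 7th lowest matched ratio of the 7819 genes, a place known from its choice and given as a description. Its standardised level was 49.7 CPM in Tom- and 37.9 CPM in Tom+ hepatocytes, 23.8% lower in Tom+, with all 8 layers counted. The layer ratios were -0.36 (-0.41 to -0.31), -0.25 (-0.31 to -0.19) and -0.28 (-0.37 to -0.20) in layers 1 to 3, where both libraries exceeded the immune-rich cluster. Over these layers, a limit set after the values were seen, the matched ratio was -0.31 (-0.35 to -0.28), at 102.7 CPM in Tom- and 82.7 CPM in Tom+ cells. The ratios were -0.46, -0.66, -0.73, -0.95 and -1.26 in layers 4 to 8, which the Tom- library, the Tom+ library or both left at or under the cluster, and no difference is read from them. In layer 1, where the gene was highest, the Tom- level had an interval of 154.9 to 160.8 CPM and the Tom+ level one of 119.1 to 126.8 CPM, which did not overlap. In that layer 0.0262% of 7643 genes were lower by 1.5-fold (2 genes), which Hsd17b6 was not, and it ranked 35th from the lowest. In layer 8, where 0.15% of 7992 genes were (12 genes), its value is not read.

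The portal genes used for the position score were set beside Hsd17b6 to see how other genes of that end moved within the layers. In layer 1 the 20 portal genes had ratios between -0.21 and 0.26 with a median of 0.04, and 6 of them were under 0. The 20 central position genes had a median ratio of 0.35 in layer 1, with 17 of them higher in Tom+ cells. Single position genes were thus not even between the libraries there, and the part of this in the Hsd17b6 ratio was not tested. Hsd17b6 lay below all 20 portal genes in layer 1. It lay below 19 of them in layer 2, the exception being Cdh1 at -0.26, and below all 20 in layer 3. These genes and the central ones set the score by which cells were matched. Matching bounds the difference between the central and the portal mean within a layer, and not the ratio of each gene. The portal genes are therefore no neutral reference, and the values are a description. The portal genes themselves fell in the Tom+ library toward the central end, to a median of -0.33 in layer 8 with 17 of 20 under 0, Sds and Hal both at -0.64. The mean score of the cells was -1.86 in Tom- and -1.85 in Tom+ cells of layer 1, and 2.23 and 2.39 in layer 8. The part of this remaining difference in score was not tested beyond finer layers. With 20 layers, Hsd17b6 was at -0.41 (-0.48 to -0.33) in the most portal one.

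**Figure D3:**
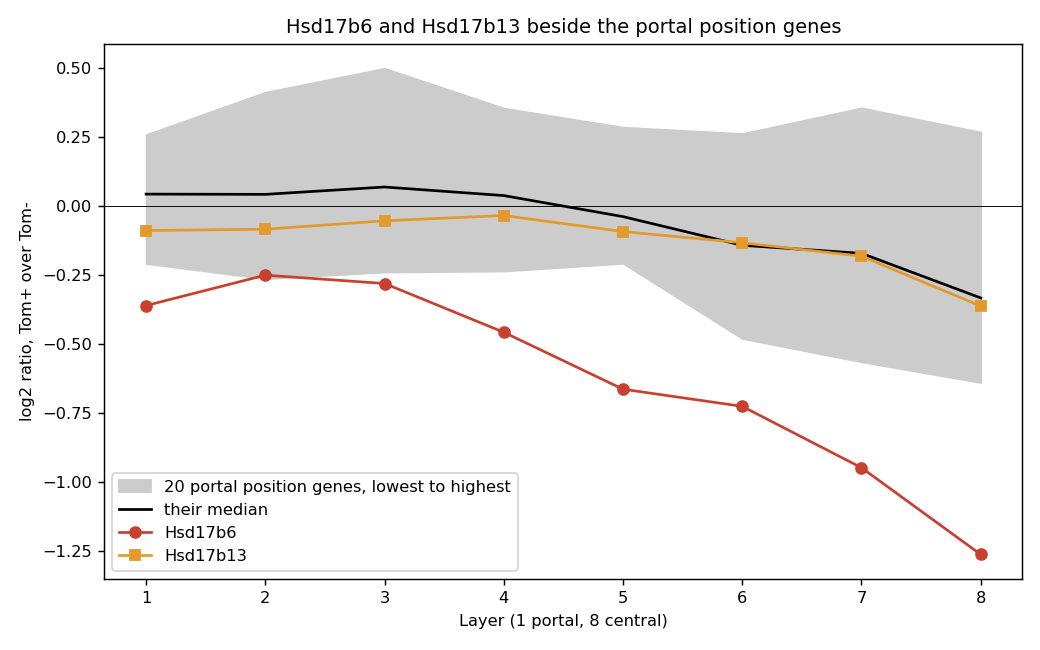
log2 ratio of Tom+ over Tom- by lobule layer for Hsd17b6 and Hsd17b13 beside the 20 portal position genes, shown as a band from the lowest to the highest with their median. Hsd17b13 stayed inside the band in all 8 layers, and Hsd17b6 ran below it in layers 1 and 3. The portal genes set the score, and the Hsd17b6 values of layers 4 to 8 are not read.

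The hepatocyte clusters were formed from all variable genes of the same cells and not from the layers, and they are not matched by position. In each cluster with cells of both libraries, apart from cluster 9, the Tom+ cells had the more central median score. The medians were -1.64 (Tom-) and -1.58 (Tom+) in cluster 1, and 0.36 and 0.08 in cluster 9. The part of this shift in the cluster ratios was not tested. Of the 9 clusters with at least 50 cells of both libraries, Hsd17b6 was lower in Tom+ cells in 9, by log2 ratios between -0.21 and -1.50. In Tom- cells only the 3 most portal of these and cluster 9 exceeded the immune-rich cluster beyond the counting intervals. No difference is read from the others, which include the ratio of -1.50, so the count over all 9 supports nothing. In the 3 most portal clusters, numbered 1, 3 and 4, Tom- cells were at 120.5, 114.4 and 108.0 CPM and Tom+ cells at 77.3, 71.9 and 76.5 CPM. The ratios there were -0.64 (-0.70 to -0.58), -0.67 (-0.77 to -0.58) and -0.50 (-0.63 to -0.37), and cluster 4 rested on 108 Tom+ cells. In cluster 9, of middle position, the ratio was -0.21 (-0.41 to -0.0047), from 46.8 and 40.5 CPM. Among the 6 clusters left out for few genes or other cell types, all 6 were lower in Tom+ cells, with the smallest ratio at -0.03 (-0.30 to 0.24). The immune-rich cluster itself is among these 6, at -0.97, and another stood under it at 14.5 and 7.63 CPM. No difference is read from this count.

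Cluster 10, with 510 Tom+ cells and 93.6% of its cells from that library, stood apart. Its median position score was -1.48, against -1.65 to -1.53 in the portal clusters above, but its Hsd17b6 level was 122.1 CPM (117.3 to 127.0), near the 120.5 CPM (117.4 to 123.7) of Tom- cluster 1 and above every other Tom+ portal cluster. The cluster had Dbp, a clock output factor, at 61.6 CPM, against 9.46 to 18.5 CPM in the other 3 portal clusters of both libraries. Its Cyp2f2, a portal position gene, was at 591.9 CPM against 250.3 to 368.5 CPM, and its Hsd17b2 at 212.9 CPM against 164.9 to 187.6 CPM. The part of these in the Hsd17b6 level was not tested. Cluster 7, the central counterpart with 1587 Tom+ cells and 97.7% of its cells from the Tom+ library, had Dbp at 65.9 CPM. It held Hsd17b6 at 7.55 CPM. Leaving both clusters out moved the matched ratio of Hsd17b6 to -0.53 and its layer 1 ratio to -0.51 (-0.57 to -0.45). The ratio was thus larger among cells outside these 2 clusters.

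**Figure D4:**
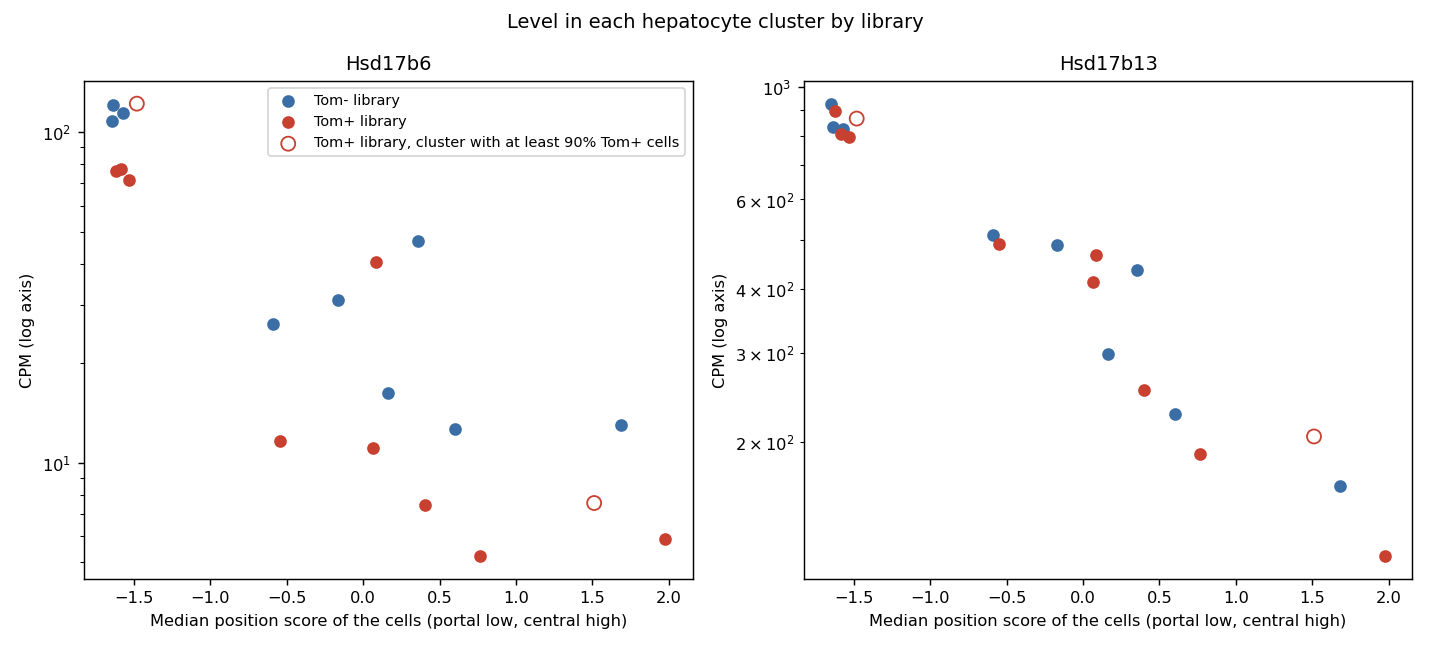
Level of Hsd17b6 and Hsd17b13 in CPM (log axis) in each hepatocyte cluster and library against the median position score of its cells. Open points are Tom+ cells of the 2 clusters with at least 90% Tom+ cells. For Hsd17b6 the open portal point, at 122.1 CPM, lies just above the 3 Tom- portal points, and the 3 filled Tom+ portal points lie between 71.9 and 77.3 CPM.

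Hsd17b13 was slightly lower in Tom+ cells in layers 1 to 4, where both libraries exceeded the immune-rich cluster, with ratios between -0.03 and -0.09. The ratios of layers 5 to 8, from -0.09 to -0.36, are not read for the reason given for Hsd17b6, although the matched ratio of -0.09 above counts all 8 layers. Over layers 1 to 4 it was at 763.9 CPM in Tom- and 728.0 CPM in Tom+ cells, a matched ratio of -0.07 (-0.08 to -0.06). The portal position genes had medians of 0.04, 0.04, 0.07 and 0.04 in layers 1 to 4, where Hsd17b13 was at -0.09, -0.08, -0.05 and -0.03. In hepatocyte clusters it was lower in Tom+ cells in 8 of 9, with -0.05 in each of the 3 most portal clusters, and higher in cluster 9, at 0.10 (0.03 to 0.16). By median score the Tom+ cells of cluster 9 were the more portal ones. Clusters 0, 2 and 5 stood under the immune-rich cluster in Tom- cells, at 164.5, 227.9 and 298.9 CPM, and their ratios are not read. In the 6 left-out clusters it was lower in 3 and higher in 3. In cluster 10 it was at 865.1 CPM, within the 796.5 to 925.5 CPM of the other portal clusters.

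Hsd17b10 was higher in Tom+ cells in all 8 layers, with ratios between 0.07 and 0.23 whose intervals all left out 0. The matched levels were 98.0 CPM in Tom- and 109.7 CPM in Tom+ hepatocytes, 11.9% higher. In the 9 clusters with both libraries it was higher in 9, by 0.06 to 0.32, and in the 6 left-out clusters it was higher in 6. The immune-rich one of these was at 0.01 (-0.15 to 0.18), with an interval that held 0. The intervals of left-out cluster 12 and hepatocyte cluster 5 held 0 too, and the clusters are not matched by position. By its matched ratio Hsd17b10 stood above 88.8% of the 7819 genes, and 873rd from the highest. Hsd17b11 was higher in all 8 layers by 0.03 to 0.14, with 7 of 8 intervals that left out 0 and matched levels of 192.6 and 204.8 CPM, 6.35% higher. The clusters did not bear this out evenly, since it was higher in Tom+ cells in 6 of 9 and lower in 3. Without the clusters that were nearly all Tom+, the matched ratio fell to 0.05. These differences are within the range of most genes, which lay between -0.17 and 0.23 at the 5th and 95th percentiles. Only 2 Tom- and 4 Tom+ layers of Hsd17b10 lay over the interval of the immune-rich cluster, and 3 and 2 layers of Hsd17b11. Many cell types use these genes, so the cluster does not measure background for them. How much background any of the layers hold is not known for these genes either.

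For Hsd17b2, Hsd17b4 and Hsd17b12 the layer ratios lay on both sides of 0. They ranged from -0.06 to 0.03 for Hsd17b2, from -0.03 to 0.06 for Hsd17b4 and from -0.08 to 0.06 for Hsd17b12. The matched levels were 173.5 and 171.4 CPM for Hsd17b2, 257.5 and 257.7 CPM for Hsd17b4 and 54.4 and 53.8 CPM for Hsd17b12. How far replicate libraries would differ in these genes is not known.

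Variation with the reporter was then looked at among cells of a single library. Within each library and layer the cells were split into 3 equal parts by the tdTomato share of their UMIs, and the brightest part was compared with the dimmest. In the Tom+ library tdTomato was at 357.3 CPM in the dimmest and 1404 CPM in the brightest part. Hsd17b6 was at 34.6 and 42.1 CPM in these, a log2 ratio of 0.28 (0.22 to 0.35), and it was lower in the brightest part in 2 of 8 layers. With cells thinned to 5000 UMIs the ratio was 0.36 (0.17 to 0.55), and it was lower in 3 of 8 layers. Both ratios include the central layers from which no difference of this gene is read. In the Tom- library the same split gave 0.12 (0.07 to 0.17), and -0.12 (-0.24 to 0.0028) after thinning, with an interval that held 0. Thinning also redrew the split, since tdTomato in the dimmest Tom- part was at 20.7 CPM with all UMIs and had no UMI after thinning. Brightness moved with depth, with medians of 45434 UMIs in the dimmest and 29464.5 UMIs in the brightest part of the Tom+ library, and of 38793 and 25996 UMIs in the Tom- library. The part of depth was not tested beyond the thinning.

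Hsd17b13 and Hsd17b2 held their direction in both libraries and after thinning, with intervals that left out 0. Hsd17b11 kept its sign as well, at 0.03 in Tom+ and 0.04 in Tom- cells, and at 0.02 and 0.03 after thinning. Its intervals after thinning held 0. Hsd17b13 was lower in the brightest part, at -0.17 (-0.19 to -0.16) in Tom+ and -0.14 (-0.16 to -0.13) in Tom- cells, and at -0.11 and -0.07 after thinning. These Hsd17b13 ratios include the central layers from which no difference of this gene is read. Hsd17b2 was lower too, at -0.09 (-0.12 to -0.06) and -0.15 (-0.18 to -0.12), and at -0.10 and -0.14 after thinning. Glul, a position gene of the central end, was higher in the brightest part in both libraries. It was at 0.36 in Tom+ and 0.89 in Tom- cells, and at 0.24 and 0.48 after thinning. Its part in the ratios of the members was not tested. Of the 14 ratios for 7 genes in 2 libraries, 13 had an interval that left out 0 with all UMIs and 5 after thinning. The share of all genes with such an interval was not counted.

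**Figure D5:**
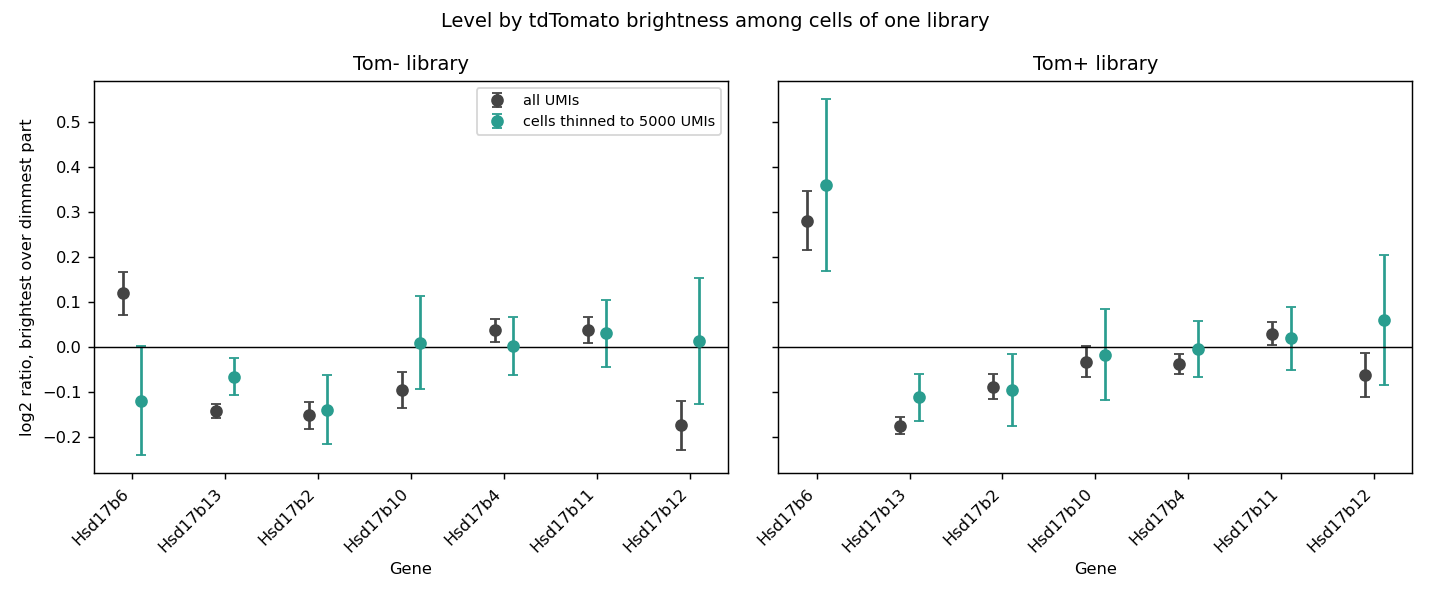
log2 ratio of the brightest over the dimmest of 3 equal parts of cells by tdTomato share, matched by layer, for each member in each library, with 95% counting intervals. Values from all UMIs are in grey and values from cells thinned to 5000 UMIs in green. Hsd17b6 is at 0.28 and 0.36 in the Tom+ library, and its 2 values for the Tom- library lie on opposite sides of 0.

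Of the other genes of the family in the files, only Hsd17b7 reached 10 CPM. Hsd17b7, a ketosteroid reductase of cholesterol synthesis, was at 48.4 CPM in Tom- and 44.7 CPM in Tom+ cells at matched position, a ratio of -0.12 (-0.15 to -0.09), and was lower in 7 of 8 layers. Hsd17b1, which activates estrone to estradiol, had 471 and 540 UMIs over all hepatocytes (1.19 and 1.29 CPM). Hsd17b3, the testis enzyme of testosterone synthesis, had 21 and 24 UMIs, and Hsd17b14 had 9 and 7 UMIs, too few for a ratio by layer.

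The pathways that the members belong to were described from gene lists by counts and medians. Among genes that reached 10 CPM, none of the retinol dehydrogenase, sex steroid, peroxisomal beta-oxidation, fatty acid elongation, lipid droplet, isoleucine breakdown or mitochondrial tRNA processing lists passed 1.5-fold at matched position. Of all 7819 genes 0.243% were higher and 0.0128% lower by that measure, so a count of none is near the share over all genes. The medians of these lists lay between -0.05 and 0.04, beside -0.01 for all 7819 genes. The single genes named for these lists in the next paragraphs were chosen after their values were seen, as the lowest or highest of a list or as those with a gradient.

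Among 6 measured retinol dehydrogenase relatives of Hsd17b6 the ratios ran from -0.12 (Sdr9c7) to 0.54 (Rdh5, at 8.29 and 12.1 CPM), and none had a 2-fold gradient. Rdh5 passed 10 CPM only through the Tom+ library, so its ratio supports nothing. The next highest was Rdh16, at 0.04. Dhrs9, at 9.76 and 8.72 CPM, was left out by the same limit. Of the 6 relatives, Sdr9c7, Rdh7, Rdh16f2 and Rdh16 lie within 144371 bases of Hsd17b6 on chromosome 10. Probes that bind close relatives could count RNA of each other, so small differences among them are uncertain. Of 18 measured sex steroid genes that were not position genes, 3 had a 2-fold central gradient (Akr1c6, Akr1c20 and Hsd3b7), beside 3.48% of all genes, and 2 a portal one, beside 2.26%. The portal genes were Srd5a1, the steroid 5-alpha reductase, with gradients of -2.15 and -2.18, and Hsd11b1, which regenerates active glucocorticoid, with -1.74 and -2.04. Hsd11b1 was also the lowest of its list in Tom+ cells, at 577.3 and 468.3 CPM, a matched ratio of -0.30 (-0.31 to -0.29).

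All 24 peroxisomal beta-oxidation genes were measured. Acaa1b, a thiolase, had the highest ratio, 0.36 (0.34 to 0.38), and a gradient of 1.00 and 1.01 toward the central end, the direction of Hsd17b4. Ehhadh, the L-bifunctional protein that acts beside Hsd17b4 on straight-chain substrates, ran the other way, with gradients of -1.07 and -1.23. Among 13 elongation genes, the elongase Elovl6 was highest at 0.35 (0.33 to 0.37). Hacd3, a dehydratase of the same cycle as Hsd17b12, had central gradients of 1.11 and 1.25, and the desaturase Scd1 portal ones of -1.56 and -1.79. Of 21 lipid droplet genes none had a 2-fold gradient, beside 3.48% (central) and 2.26% (portal) of all genes. Plin4, a coat protein, was the lowest of them at 110.9 and 83.3 CPM, a ratio of -0.41 (-0.43 to -0.39). Of 14 isoleucine breakdown genes Echs1 was highest at 0.33 (0.31 to 0.35), and of 4 mitochondrial tRNA processing genes Trnt1 was highest at 0.33 (0.27 to 0.40).

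In the list of clock genes, included because the clusters of mostly Tom+ cells had high Dbp, 2 of 13 passed 1.5-fold, beside 0.243% of all genes, and the median was -0.02. The list was chosen with high Dbp in Tom+ cells known, and Dbp passed 10 CPM only through the Tom+ library, so the count supports nothing. Dbp was at 8.16 CPM in Tom- and 21.8 CPM in Tom+ cells, a ratio of 1.41 (1.35 to 1.47), and Per3 at 12.9 and 21.4 CPM, a ratio of 0.74 (0.68 to 0.79).

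The genes whose pattern was most like that of a member were ranked by Pearson correlation of log2(CPM + 1) over the 16 points, among 5851 genes of at least 20 CPM that were neither members nor position genes. The points share position scores and library totals, so these are descriptions with no test. Nearest to Hsd17b6 were Tmem250-ps (0.99), Obp2a (0.99) and Slc38a2 (0.99). Obp2a shared its steep fall, with gradients of -4.76 and -5.25 and a matched ratio of -0.24, while Tmem250-ps and Slc38a2 had gradients between -0.42 and -0.59. Nearest to Hsd17b13 were Prg4, Gas2 and Ptgds (each 1.00 after rounding), with gradients of -1.26 and -1.52, -2.46 and -2.64, and -3.87 and -4.37. Nearest to Hsd17b4 were Arhgef3, Adh4 and Akr1c20 (each 1.00 after rounding). Adh4, an alcohol dehydrogenase, rose by 2.52 and 2.46. Nearest to Hsd17b11 were Phyh, an enzyme of peroxisomal alpha-oxidation, Plec and Fmo5 (0.99, 0.99 and 0.98). For Hsd17b2 they were Proser2, Hgfac and Slco2a1 (each 0.98), for Hsd17b10 Sardh, Fads2 and Slc37a4 (each 0.97) and for Hsd17b12 Kdsr, Tmem140 and Acsf2 (0.93, 0.93 and 0.92).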

How the data were processed

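Single-cell libraries of fixed hepatocytes were counted by the authors with Cell Ranger (7.2.0, mm10) from a mouse probe set with added tdTomato probes. The 2 deposited files hold unscaled UMI counts for 19073 features in each barcode. Cells were kept with the study's limits (mitochondrial fraction of at most 0.05, 2000 to 10000 genes, at most 100000 UMIs). Both libraries were clustered together (scanpy 1.11.5, Leiden resolution 0.8, 30 components, 20 neighbours). A cluster was left out where its median number of genes fell under 0.75 of the overall median, or where its Ptprc, Pecam1 or Dcn level reached 2.5 times that of the median cluster. Doublets were not called. Counts were summed per library and layer, with no pseudocount and no test, since each group has 1 library. Levels have exact Poisson intervals, and ratios have intervals from counting errors. The gradient counts leave out the 40 position genes. All 7 members are named in the comparisons by layer, and only some of them in the text on clusters and brightness. For each member, the 3 most correlated genes were added, and from each list the genes past 1.5-fold. Other list and position genes were named after their values were seen. The members, the gene lists and the comparisons were chosen with earlier results of these data known. Functions were tested on simulated counts. Gene positions are from GENCODE M21 and promoters from RefSeq (GRCm38.p6).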

Additional observations from a re-analysis of the deposited data

Results flagged for a closer look

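The gradient of Dbp, a clock output factor, had opposite signs in the libraries. It was -0.84 in the Tom- library (12.7 CPM in layer 1 and 7.14 CPM in layer 8) and 0.39 in the Tom+ library (23.2 and 30.5 CPM). The difference was not tested, since each group has 1 library.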

How the results depend on the processing

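Hsd17b6 was lower in Tom+ cells under all 18 alternatives, from -0.36 to -1.21. These values are matched ratios over the whole lobule, so they count the layers from which no difference of this gene is read. The matched ratio over only the layers that are read was not put through the alternatives, so how far it depends on the processing is not known. The Hsd17b6 values outside its reported counting interval were -0.53 without clusters of at least 90% Tom+ cells, -0.48 with a per-cell limit on marker UMIs, -0.50 and -0.36 with the position genes at odd and even places, and -1.21 with layer limits set per library, which undoes the matching. The mean of the 8 layer ratios, an alternative chosen after seeing the data, was -0.62. It changed the statistic and not the layer weights, which were already equal, and it includes the layers that are not read. Genes higher and lower by 1.5-fold numbered 9 (higher) without the nearly all Tom+ clusters, 120 and 37 with limits per library, 6 and 0 at 50 CPM, and 68 and 15 at 1 CPM. Central and portal gradients numbered 122 and 99 at 50 CPM and 502 and 308 at 1 CPM. Thinning left 5 of 13 brightness ratios with an interval off 0. Of 360 further values for members, the matched ratio of Hsd17b6 not among them, 15 changed sign. In 8 of these, 7 matched ratios of Hsd17b4 and 1 of Hsd17b12, the reported interval already held 0, and the values lay between -0.025 and 0.036. The other 7 were the Hsd17b2 ratio without the 10% of cells with most UMIs (0.0036) and by the mean UMI share (0.0049), the Tom+ gradient of Hsd17b12 by median of ratios (-0.0033), and, after thinning, the brightness ratios of Hsd17b6 (-0.12), Hsd17b10 (0.010) and Hsd17b12 (0.014) in Tom- and of Hsd17b12 (0.060) in Tom+ cells. Limits per library also took the matched ratios of Hsd17b13 to -0.68, Hsd17b11 to 0.23, Hsd17b4 to 0.15, Hsd17b10 to 0.091 and Hsd17b2 to -0.072. Median of ratios took the gradients of Hsd17b4 to 0.47 and 0.40 and of Hsd17b11 to 0.37 and 0.40. The Hsd17b12 gradient fell to 0.16 (Tom-) with the study's landmark genes and to 0.13 (Tom+) after thinning. The cause was not tested. No paired analysis was possible because there is 1 library in either group. Depth limits low genes. Hsd17b6 had 267 UMIs in layer 8 of the Tom- library.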
